A study of Mus musculus with 18 samples.

Results

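Gene expression in the tissue bordering a cortical stroke was compared between mice lacking Trem2 and wild-type mice. The comparison holds 6 of the 18 libraries of the study, chosen by their labels as peri-infarct tissue: 3 from Trem2 knockout mice and 3 from wild-type mice, both on a C57Bl6 background. Per the labels all animals were adult males of 8 to 10 weeks that received 50 mg/kg of the dye Rose Bengal and 525 nm laser light at 125 mW over a 3 mm lesion (photothrombosis, in which the light-activated dye closes cortical vessels), and tissue was taken 7 days after injury. The remaining libraries, 3 per genotype from the infarct core and 3 per genotype from the contralateral side, serve below to show where the border differs and, in fits named as such, to estimate the spread. The labels do not describe the knockout allele, name the substrain or say whether littermates served as controls, and they do not say whether libraries with 1 number come from 1 animal. P-values therefore measure the spread between these libraries, which may be partly technical.

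Trem2 is a lipid-sensing receptor on the surface of microglia, the resident macrophages of the brain, and of some infiltrating macrophages. It signals through the adaptor Tyrobp (DAP12) and the kinase Syk, and ADAM proteases shed its outer part. Microglia that meet dead cells, myelin debris or plaques take on a state rich in lysosomal and lipid-handling genes, called disease-associated, and in other models the full form of that state depends on Trem2.

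Total counts in the 6 libraries were 17053464 to 17691801, and 14858 of 18922 genes passed the filter on low counts and were tested. Replicates varied in the levels of tissue markers, and the source of this was not tested. Wild-type replicate 1 had the highest summed level of fibrotic scar genes (2480.3 CPM, the count scaled to library size, against 1114 to 1864 in the other 5 libraries) and of cell cycle genes. Wild-type replicates 1 and 3 were low in markers of striatal projection neurons (303 and 353 CPM, against 900.3 to 1172). Knockout replicates 1 and 3 were high in markers of the choroid plexus, the tissue that makes cerebrospinal fluid (644 and 2355 CPM, against 27.3 to 95.7). Since the libraries differed in this way, a list median is given with its value without each library whose removal turned its sign or moved it by over 1.5 times. Values per library are CPM scaled by the TMM method, in the order of replicates 1, 2 and 3, and differences are log2 fold changes ± SE, knockout against wild type, with 3 libraries per group.

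Only 2 genes (0.0135% of those tested) passed the threshold of an adjusted p under 0.05 in edgeR's quasi-likelihood test of these 6 libraries, 1 lower in the knockout (0.00673% of the genes tested) and 1 higher (0.00673%). The gene that fell was Trem2, which held 2.48, 3.21 and 3.93 CPM in the knockout against 128, 92.0 and 125 CPM in the wild type, so that the groups lay far apart. Its difference was -5.16 ± 0.20 (edgeR adjusted p = 0.00014), and the transcripts that remained were 2.78% of the wild-type mean. The gene that rose was H2-T24, a non-classical class I histocompatibility gene, with 22.4, 26.0 and 21.8 CPM in the knockout and 7.48, 8.79 and 8.66 CPM in the wild type. It rose by 1.49 ± 0.12 (edgeR adjusted p = 0.0105). Its groups did not overlap. H2-T24 is one of several related class I genes on chromosome 17. Estimated counts can split reads between genes of similar sequence, although all values of H2-T24 here were whole numbers. The call for H2-T24 was lost when all 18 libraries were fitted together (edgeR adjusted p = 0.203), with the replicate number as a block (edgeR adjusted p = 0.0952) and when knockout replicate 1, 2 or 3 or wild-type replicate 3 was left out (edgeR adjusted p = 0.141, 0.0502, 0.077 and 0.0751).

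Below the threshold more genes had small unadjusted p values, and the part of uneven tissue markers in this was not tested. An unadjusted p under 0.05 was reached by 1703 genes (11.5%), 856 of them higher in the knockout (5.76%) and 847 lower (5.70%), and the libraries did not overlap for 1239 genes higher (8.34%) and 1340 lower (9.02%). DESeq2, run as an alternative on the same 6 libraries, called 226 of the 14858 genes, 85 higher and 141 lower. A fit that estimated the spread from the 12 peri-infarct and contralateral libraries called 10 genes (0.0663% of 15075). Among them were Trem2, H2-T24, the lipase Lpl, the integrin subunit Itgb5, the mitochondrial mutase Mmut, the mitochondrial transhydrogenase Nnt, the glyoxalase Glo1, the DNA polymerase Polh and the small-GTPase regulator Arap3. Of the 10 genes, H2-T24, Mmut and Glo1 were higher in the knockout and the other 7 lower. In what follows, values that did not pass in the 6 libraries are given as values.

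After Trem2 and H2-T24, the genes with the smallest p values and a mean of at least 1 log2 CPM held adjusted p values of 0.141 to 0.159. The central complement component C3 stood at 48.9, 37.6 and 46.0 CPM in the knockout and 20.8, 17.9 and 24.3 CPM in the wild type, a difference of 1.07 ± 0.14. Every knockout library was above every wild-type library. Glo1, which detoxifies methylglyoxal, stood at 258, 186 and 261 CPM against 120.1, 116 and 119 CPM (0.99 ± 0.13). Knockout replicate 2 was the lowest of the knockout libraries for both genes, and still above all wild-type libraries. Trim36, a ubiquitin ligase (0.82 ± 0.11), and Mmut, which handles methylmalonyl-CoA (0.61 ± 0.088), completed the genes higher in the knockout.

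On the lower side, Nnt, which makes NADPH in mitochondria, stood at 24.4, 25.5 and 25.7 CPM in the knockout and 46.7, 46.4 and 38.8 CPM in the wild type (-0.80 ± 0.10). The microglial Fc-receptor-like gene Fcrls stood at 194, 213 and 189.5 against 348, 303 and 366 CPM (-0.77 ± 0.10). For both genes the groups were separate and the knockout libraries lay close together. Ell2, a transcription elongation factor, stood at -0.56 ± 0.079, and Gpr65, a proton-sensing receptor of leukocytes, at -1.24 ± 0.18, with no overlap between groups for either.

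**Figure D1:**
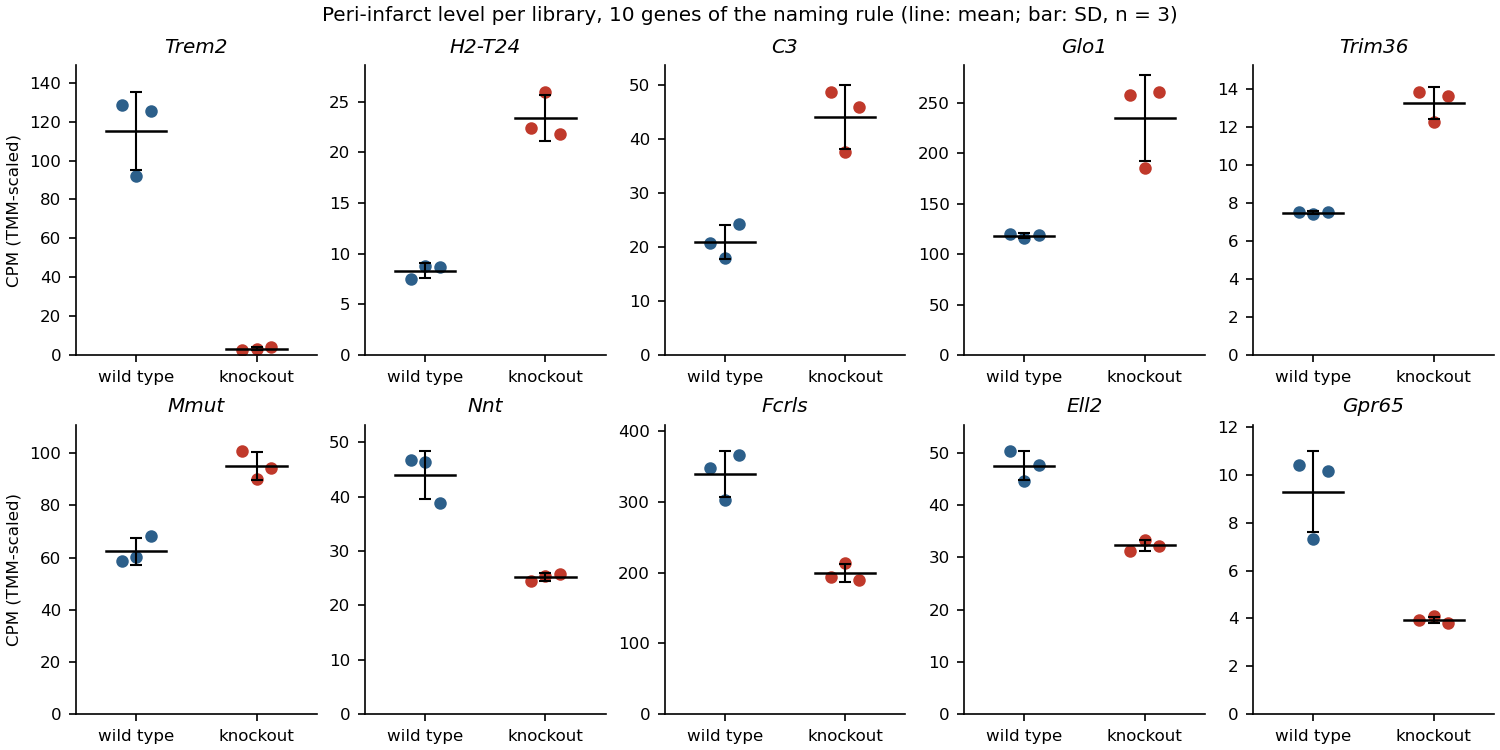
Level of 10 genes in each peri-infarct library, as TMM-scaled CPM on linear axes from 0 (points: libraries in the order of replicates 1 to 3, line: mean, bar: SD, n = 3). In each panel the 3 knockout libraries are separate from the 3 wild-type libraries, and only Trem2 and H2-T24 passed the adjusted threshold.

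The genes that work with Trem2 were mostly lower in the knockout. Of 21 signalling partners, all tested, 18 were lower and 3 higher. Of the 21, 7 had an unadjusted p under 0.05, all lower (33.3% of the list, against 5.70% of all genes), and 0 passed the adjusted threshold. The median log2 fold change was -0.26, against 0.00064 over all tested genes, and -0.17 without wild-type replicate 1. Tyrobp, the adaptor without which Trem2 cannot signal, held 68.4, 91.2 and 87.4 CPM in the knockout and 159, 106 and 131 CPM in the wild type (-0.68 ± 0.17), with no overlap. Among the downstream enzymes, Syk overlapped between the groups (-0.34 ± 0.15), while the kinase Btk (-0.58 ± 0.19), the exchange factor Vav1 (-0.40 ± 0.14) and the phosphoinositide kinase subunit Pik3cg (-0.44 ± 0.10) did not. The sheddase Adam17, one of the proteases that cut Trem2, held 42.5, 47.5 and 42.8 CPM against 62.3, 52.9 and 61.9 CPM (-0.42 ± 0.092). DESeq2 called 2 of the 21 genes, both lower (against 141 lower of all 14858 genes).

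Disease-associated microglia genes were lower across nearly the whole list. All 26 were tested, 23 were lower and 3 higher. The libraries did not overlap for 17 lower genes and 1 higher gene (over all genes, for 9.02% and 8.34%). An unadjusted p under 0.05 was held by 17, all lower (65.4% of the list, against 5.70% of all genes). None passed the adjusted threshold in edgeR, and DESeq2 called 12 of the 26, all lower (against 141 lower of all 14858 genes). The list median was -0.75, and -0.85 to -0.55 when each library was left out in turn. In bulk tissue fewer cells of a type and less RNA per cell cannot be told apart.

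Lpl, which frees fatty acids from lipoproteins, was the member with the smallest p, at 35.3, 47.8 and 41.6 CPM in the knockout and 214, 116 and 133 CPM in the wild type (-1.89 ± 0.25). The highest knockout library stood below the lowest wild-type library by a wide margin, and Lpl passed in the 12-library fit (edgeR adjusted p = 0.011). Clec7a, a receptor for glucans that marks the activated state, held 19.7, 28.3 and 32.2 CPM against 91.8, 55.6 and 83.3 CPM (-1.52 ± 0.24). The integrin Itgax, also called CD11c, held 3.29, 5.6 and 4.15 against 10.9, 7.63 and 16.1 CPM (-1.41 ± 0.30). For these 3 genes no library of one genotype reached the range of the other. The matrix cytokine Spp1 (osteopontin) held 622, 863 and 1371 CPM against 4285, 1698 and 2829 CPM (-1.63 ± 0.41), and Gpnmb, a glycoprotein of lipid-laden phagocytes, 233, 294 and 328 against 1431, 532 and 628 CPM (-1.60 ± 0.40). Wild-type replicate 1 was the highest library for both by far. Without that library 25 of the 26 genes were lower, with a median of -0.55. At the other end of the list Axl (0.048 ± 0.14), a receptor for apoptotic cells, and B2m (0.018 ± 0.16), the light chain of class I molecules, stood close to 0.

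Lysosomal and phagocytic genes were also mostly lower. The table held 28 of the 29 listed genes, all were tested, 25 were lower and 3 higher, and 15 had an unadjusted p under 0.05, all lower (53.6% against 5.70% of all genes). Their median was -0.42, edgeR passed 0 and DESeq2 called 12 of the 28, all lower (against 141 lower of all 14858 genes). Cathepsin D (Ctsd), a main protease of the lysosome, held 2463, 2972 and 3171 CPM in the knockout and 6792, 4646 and 5354 CPM in the wild type (-0.96 ± 0.17). Cathepsin Z (Ctsz, -0.76 ± 0.12) is in both this list and the disease-associated one, and the progranulin gene Grn stood at -0.58 ± 0.12. The proton pump subunit Atp6v0d2 had the largest difference of the list, with 1.1, 1.69 and 1.55 against 8.68, 2.85 and 6.41 CPM (-2.04 ± 0.42). The membrane proteins Lamp1 (0.0023 ± 0.095) and Lamp2 (-0.16 ± 0.12) and the saposin precursor Psap (-0.041 ± 0.095) had overlapping libraries.

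Lipid genes were mostly lower, with wide differences in the uptake receptors. Of 22 lipid genes, all tested, 18 were lower and 4 higher, 10 had an unadjusted p under 0.05 and were lower, and 2 had one and were higher (45.5% and 9.09%, against 5.70% and 5.76% of all genes), with a median of -0.19 (-0.30 without wild-type replicate 2). The scavenger receptor Cd36 held 5.25, 8.46 and 11.6 CPM in the knockout and 144, 35.6 and 31.2 CPM in the wild type (-3.05 ± 0.77), and the scavenger receptor Msr1 13.6, 11.9 and 26.2 against 117, 40.4 and 37.0 CPM (-1.91 ± 0.59). The droplet coat protein Plin2 held 91.9, 106 and 146 against 410.0, 159.7 and 164 CPM (-1.09 ± 0.42). In all 3 genes the groups were separate and wild-type replicate 1 was far above the other wild-type libraries. The cholesterol exporter Abca1 held 267, 265 and 263 CPM against 374, 298 and 387 CPM (-0.41 ± 0.11), and the exporter Abcg1 stood at -0.035 ± 0.074. The 2 genes higher at an unadjusted p under 0.05 were the phospholipid transfer protein Pltp (0.34 ± 0.11) and Plin3 (0.28 ± 0.095). Of 21 cholesterol synthesis genes 16 were lower, 4 of them at an unadjusted p under 0.05 (19.0%, against 5.70% of all genes). Their median was -0.066. That median was -0.034 and -0.11 without knockout replicate 1 or 3, -0.11 without wild-type replicate 1, and turned to 0.014 without wild-type replicate 2. The isomerase Idi1 (-0.29 ± 0.093) and the synthase Hmgcs1 (-0.24 ± 0.081) had the smallest p.

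Markers of resting microglia were split in direction. Of 17 tested genes 9 were lower and 8 higher. At an unadjusted p under 0.05, 6 were lower and 1 higher (35.3% and 5.88%, against 5.70% and 5.76% of all genes). The list median was -0.16. It was -0.091 without knockout replicate 3, and -0.25, -0.024 and -0.072 without wild-type replicate 1, 2 or 3. Fcrls, Olfml3 (-0.51 ± 0.09), Tmem119 (-0.23 ± 0.10), Gpr34 (-0.41 ± 0.12) and the fractalkine receptor Cx3cr1 (-0.38 ± 0.11) were lower with no overlap between genotypes. The purinergic receptors P2ry12 (0.13 ± 0.15) and P2ry13 (0.10 ± 0.13), the growth factor receptor Csf1r (-0.19 ± 0.13) and the microglial transcription factor Sall1 (0.17 ± 0.12) overlapped between genotypes. The adhesion receptor Adgrg1 was higher, at 104, 86.2 and 84.9 CPM against 60.1, 76.1 and 68.1 CPM (0.43 ± 0.12). Summed over the list the libraries held 1969 to 2286 CPM in the knockout and 2589 to 3061 CPM in the wild type.

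**Figure D2:**
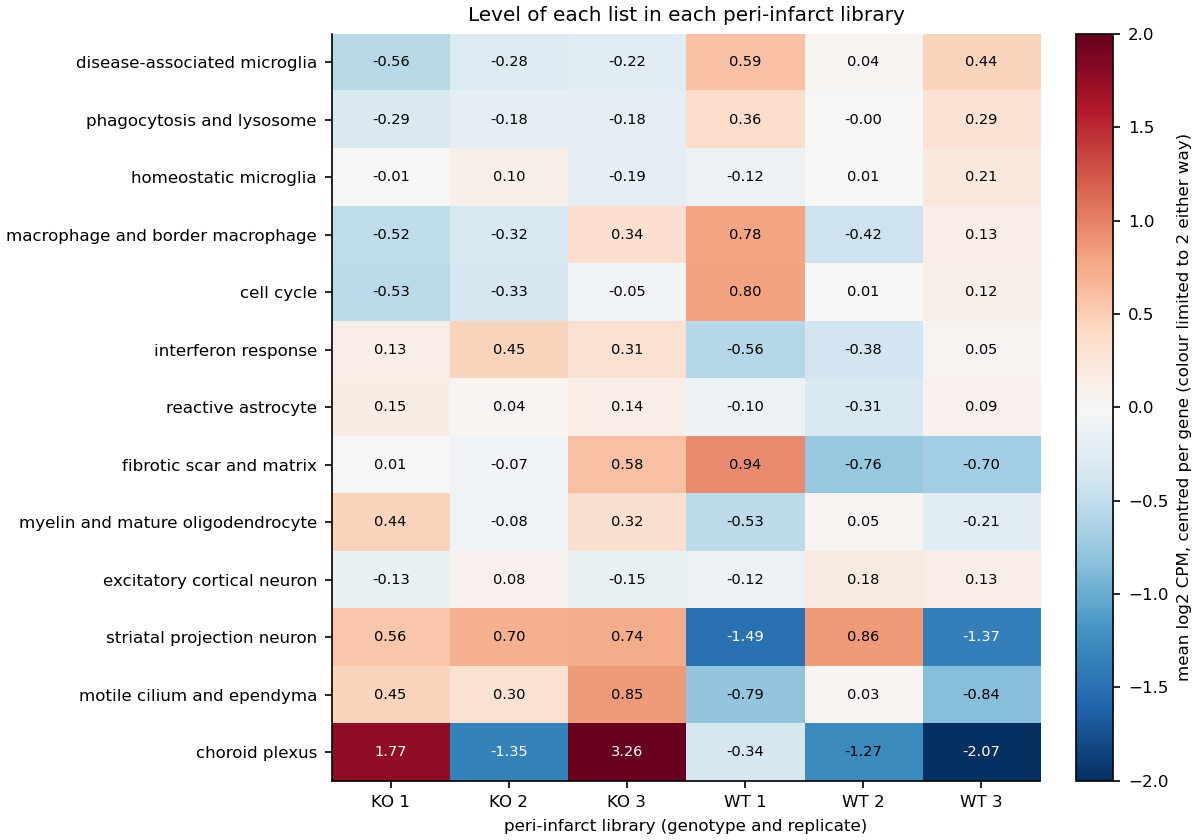
Mean log2 CPM of 13 gene lists in each peri-infarct library, centred per gene over the 6 libraries (colour and printed number, columns are libraries by genotype and replicate). The disease-associated list lies below 0 in the 3 knockout libraries and above 0 in the 3 wild-type libraries, while the striatal list splits the wild-type libraries and the choroid plexus list splits the knockout libraries.

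Complement genes were split in direction. Of 17 tested genes 8 were higher and 9 lower. At an unadjusted p under 0.05, 4 were higher and 5 lower (23.5% and 29.4%, against 5.76% and 5.70% of all genes). Lower were the 3 chains of C1q, the recognition molecule of the classical pathway, with C1qa at 365, 416 and 396 CPM in the knockout and 639, 476 and 645 CPM in the wild type (-0.58 ± 0.13), C1qb at -0.50 ± 0.11 and C1qc at -0.57 ± 0.11. The integrin chain Itgb2 (-0.71 ± 0.16), a part of complement receptors on phagocytes, and the anaphylatoxin receptor C3ar1 (-0.91 ± 0.31) were also lower. Higher were C3, C4b with 453, 379 and 329 CPM against 141, 201 and 217 CPM (1.06 ± 0.18), factor B (Cfb, 1.21 ± 0.31), which forms the alternative convertase, and the inhibitor Serping1 (0.45 ± 0.15). For these 9 genes the groups did not overlap (over all genes, for 8.34% higher and 9.02% lower). DESeq2 called 3 higher and 5 lower of the 17 (against 85 and 141 of all 14858 genes). C4b is also a reactive astrocyte marker, and 3 of the 4 higher genes, C3, C4b and Cfb, lie on chromosome 17, which also carries Trem2.

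Interferon-stimulated genes were higher in the knockout. The table held 20 of 21 listed genes, all were tested, 19 were higher, and 14 had an unadjusted p under 0.05, all higher (70.0% against 5.76% of all genes). The groups did not overlap for 13 of the 20, all higher (against 8.34% of all genes). The median was 0.65, and 0.52 to 0.84 when each library was left out in turn. edgeR passed 0 and DESeq2 called 7 of the 20, all higher (against 85 higher of all 14858 genes). Many such genes carry in their promoter the interferon-stimulated response element, which interferon-activated transcription factors bind. As a description, the letters GAAA followed after any 2 bases by a second GAAA were searched on both strands, overlaps allowed, in the 250 bases before the transcription start of RefSeq promoters (GRCm38.p6). They were found in 10 of the 15 list genes with an entry (66.7%), against 388 of 11783 tested genes with an entry (3.29%). The windows around the matches are shown for 4 genes that were higher in the knockout, read 5′ to 3′ along the gene, with the matches in capitals.
Isg15 (chr4:156200850-156200921, minus strand, 3 overlapping matches): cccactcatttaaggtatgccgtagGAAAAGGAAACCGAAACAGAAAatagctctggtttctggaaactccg
Ifit1 (chr19:34640760-34640838, plus strand, 2 matches): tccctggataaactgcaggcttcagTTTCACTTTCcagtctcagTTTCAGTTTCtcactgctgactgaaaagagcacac
Ifit3 (chr19:34583348-34583441, plus strand, 2 matches): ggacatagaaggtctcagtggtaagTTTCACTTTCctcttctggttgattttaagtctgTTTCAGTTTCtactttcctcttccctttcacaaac
Gbp2 (chr3:142620579-142620638, plus strand, 1 match): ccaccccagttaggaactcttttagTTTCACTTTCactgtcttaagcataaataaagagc
A match is a run of letters and not a measured binding site. In Isg15 the matches run into each other, while those of Ifit1 and Ifit3 are apart.

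Among these genes Isg15, a ubiquitin-like modifier, held 12.9, 19.9 and 17.5 CPM in the knockout and 7.42, 10.2 and 11.4 CPM in the wild type (0.79 ± 0.21). Ifit1, which binds foreign RNA caps, held 21.5, 27.5 and 26.0 against 12.7, 14.4 and 17.8 CPM (0.74 ± 0.15), and Ifit3, its partner, 95.3, 113 and 121 against 49.9, 61.8 and 79.4 CPM (0.79 ± 0.17). The guanylate-binding GTPase Gbp2 held 23.4, 27.9 and 26.2 against 16.1, 15.2 and 19.2 CPM (0.62 ± 0.12). In all 4 genes the lowest knockout library was above the highest wild-type library, and wild-type replicate 3 was the nearest to the knockout. Oasl2, an oligoadenylate synthetase-like gene whose searched window held 0 matches, had the smallest p of the list (51.6, 61.9 and 49.0 against 22, 30.6 and 33.8 CPM, 0.91 ± 0.16). The transcription factors Stat2, at 0.39 ± 0.086, and Irf9, at 0.40 ± 0.10, were higher, and the master regulator Irf7 stood at 0.79 ± 0.24. The antiviral enzyme Rsad2 was the exception (-0.0014 ± 0.29), with overlapping libraries. Few lymphocyte markers were measured, since of 18 T and NK cell markers the table held 16 and only Cd4 (0.87 ± 0.63) and Lck (0.28 ± 0.44) passed the low-count filter, and of 6 B cell markers only Cd79b did (-0.017 ± 0.32).

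Antigen presentation genes varied more between libraries. Of 15 class I genes 11 were higher, with a median of 0.18 (0.11 without knockout replicate 2, 0.087 and 0.31 without wild-type replicate 2 or 3). The groups did not overlap for 3 higher genes, which had an unadjusted p under 0.05, and for the non-classical genes H2-T23 (-0.20 ± 0.10) and H2-T22 (-0.19 ± 0.10), which were lower. The 3 were the peptide transporter Tap1 (0.34 ± 0.11), the transactivator Nlrc5 (0.39 ± 0.16) and H2-Q6 (1.2 ± 0.38). The estimated counts of H2-Q6 were not whole numbers in any of the 6 libraries. The classical heavy chains H2-K1 (0.18 ± 0.20) and H2-D1 (0.28 ± 0.22) overlapped between groups. Of 7 class II genes 6 were higher and 1 lower, with the transactivator Ciita at 0.73 ± 0.28 and the peptide-loading subunit H2-DMb1 at -0.64 ± 0.18.

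Chemokines went in both directions. Of 22 genes 4 were higher and 6 lower at an unadjusted p under 0.05 (18.2% and 27.3%, against 5.76% and 5.70% of all genes). The median of -0.10 was not stable in direction. It was 0.13 without wild-type replicate 1, with 12 genes higher and 10 lower, -0.16 and 0.0028 without wild-type replicate 2 or 3, and -0.032, -0.039 and -0.26 without knockout replicate 1, 2 or 3. Lower were Ccl3 (-1.16 ± 0.31), Ccl4 (-1.47 ± 0.49), Ccl6 (-0.73 ± 0.17), Ccl9 (-0.85 ± 0.16), Cxcl16 (-0.65 ± 0.17) and the receptor Cx3cr1, most of them products of microglia and macrophages. Higher were the interferon-induced ligands Cxcl9 (1.07 ± 0.30) and Cxcl10 (0.68 ± 0.26), Ccl5 (1.07 ± 0.37) and the B cell attractant Cxcl13, which was under 1 CPM in every library (2.02 ± 0.43). Of 17 tested cytokine and inflammasome genes 2 were higher and 2 lower at that level (11.8% each, against 5.76% and 5.70% of all genes). The growth factor Tgfb1 held 20.4, 24.2 and 22.3 CPM in the knockout and 36.6, 29.1 and 32.2 CPM in the wild type (-0.55 ± 0.11), and the cytokine Lif stood at 0.95 ± 0.36.

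The median of the macrophage list depended on wild-type replicate 1. The elastase Mmp12 held 3.40, 5.78 and 6.47 CPM in the knockout and 298, 59.5 and 38.8 CPM in the wild type (-4.66 ± 1.01, edgeR adjusted p = 0.275). The groups were separate, and wild-type replicate 1 was the highest library by far. With each library left out in turn, the difference of Mmp12 ranged from -5.10 to -3.23. The other 15 metalloproteases and inhibitors had 1 gene at an unadjusted p under 0.05, the inhibitor Timp3 (0.24 ± 0.094). The list thus had 6.25% higher and 6.25% lower at that level, near the 5.76% and 5.70% of all genes. Of 16 macrophage and border macrophage genes 15 were tested, 10 lower and 5 higher, with a median of -0.54 that became -0.12 without wild-type replicate 1. Arg1, an arginase of alternatively activated macrophages, held 3.46, 1.98 and 10.3 CPM against 64.4, 12.9 and 8.31 CPM (-2.43 ± 1.04). The groups overlapped, and the first wild-type library was the highest of all. Of 12 neutrophil markers 4 were tested, 3 higher and 1 lower (-0.73). Only S100a9 had an unadjusted p under 0.05 (25% of the 4, against 5.76% of all genes). S100a8 (1.31 ± 0.60) and S100a9 (1.81 ± 0.70) overlapped between groups and stayed under 4 CPM in every library.

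Cell cycle genes were lower in the knockout. All 20 were tested, 19 were lower, and 15 had an unadjusted p under 0.05, all lower (75.0% against 5.70% of all genes). The groups did not overlap for 11 lower genes (against 9.02% of all genes). edgeR passed 0 and DESeq2 called 2 of the 20, both lower (against 141 lower of all 14858 genes). The proliferation marker Mki67 held 22.3, 25 and 34.2 CPM in the knockout and 82.9, 39.7 and 43.1 CPM in the wild type (-1.02 ± 0.32), the topoisomerase Top2a 22.2, 23.8 and 29.6 against 65.6, 32.9 and 38.9 CPM (-0.86 ± 0.26), and cyclin A2 (Ccna2) 7.56, 9.11 and 10.4 against 21.9, 12.2 and 13.6 CPM (-0.82 ± 0.24). In these 3 genes wild-type replicate 1 was the highest and knockout replicate 1 the lowest. The median of -0.68 became -0.44 without wild-type replicate 1, and 19 of 20 genes were still lower.

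Hypoxia and glycolysis genes were mostly lower, by small amounts. Of 19 genes 17 were lower and 6 had an unadjusted p under 0.05, all lower (31.6%, against 5.70% of all genes). Their median was -0.20 over the 19 genes. The angiogenic factor Vegfa held 38.1, 39.0 and 45.0 CPM in the knockout and 60.2, 54.4 and 59.2 CPM in the wild type (-0.51 ± 0.09), the oxygen sensor Egln3 6.17, 8.00 and 9.12 against 18.6, 12.8 and 13.3 CPM (-0.94 ± 0.20), and the lactate exporter Slc16a3 5.31, 6.01 and 9.46 against 24, 13.7 and 15.4 CPM (-1.35 ± 0.28). The groups were separate for all 3. The glycolytic enzymes Gapdh (-0.082 ± 0.092), Pkm (-0.03 ± 0.10) and Aldoa (0.038 ± 0.10) overlapped. The 15 tested genes of the respiratory chain had 0 at an unadjusted p under 0.05, and a median of -0.0062 (-0.054 to 0.018 when each library was left out in turn, of which all but knockout replicate 1 moved it by over 1.5 times or turned its sign).

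Astrocyte, vascular and scar genes differed less. Of 22 reactive astrocyte genes 17 were higher, with a median of 0.11 (0.17 and 0.24 without wild-type replicate 1 or 3). An unadjusted p under 0.05 was held by 4, all higher (18.2%, against 5.76% of all genes). These were C4b, Cxcl10, Tm4sf1 (0.40 ± 0.13) and the metalloreductase Steap4 (0.59 ± 0.22). The classical markers Gfap (2679, 2907 and 2527 against 1728, 2356 and 3125 CPM, 0.17 ± 0.20) and Vim (-0.09 ± 0.15) overlapped. None of 18 resting astrocyte genes reached an unadjusted p under 0.05. Of 17 endothelial genes 3 were higher at that level (17.6%, against 5.76% of all genes). Among them were the VEGF receptor Kdr (0.46 ± 0.11) and the tight junction protein Cldn5 (0.44 ± 0.16). Of 22 scar genes 15 were higher, with a median of 0.072 that became 0.83 without wild-type replicate 1, -0.18 and -0.17 without wild-type replicate 2 or 3, and 0.14, 0.16 and -0.12 without knockout replicate 1, 2 or 3. Col1a1 shows the spread behind this, at 45.5, 47.6 and 103 CPM in the knockout and 183, 16.8 and 17 CPM in the wild type (-0.14 ± 1.06). Fibronectin (Fn1) was the 1 scar gene lower at an unadjusted p under 0.05 (4.55%, against 5.70% of all genes), with 182, 149 and 229.9 against 573, 301 and 289 CPM (-1.05 ± 0.30).

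Oligodendrocyte genes were higher in the knockout by small amounts. All 19 myelin genes were higher, 7 at an unadjusted p under 0.05 (36.8% against 5.76% of all genes), with a median of 0.41. The lipid carrier Apod held 535, 332 and 477 CPM in the knockout and 225, 251 and 290.3 CPM in the wild type (0.81 ± 0.18), and the gap junction gene Gjb1 29.7, 22.2 and 27.5 against 12.2, 19.3 and 15.5 CPM (0.76 ± 0.18). Myelin basic protein (Mbp) overlapped, with 6056, 4509.9 and 4996 against 2674, 4881 and 4094 CPM (0.42 ± 0.22). Wild-type replicate 1 was the lowest for these 3 genes, and the list median without it was 0.24, and 0.27 without knockout replicate 1. The mean centred log2 level of the list was 0.44, -0.081 and 0.32 in the knockout and -0.53, 0.053 and -0.21 in the wild type, so that knockout replicate 2, the knockout library low in choroid plexus markers, lay below wild-type replicate 2. Of 15 precursor genes Cspg4 was lower (-0.68 ± 0.17) and Sox10 higher (0.40 ± 0.14) at an unadjusted p under 0.05. That is 6.67% each way, near the 5.70% lower and 5.76% higher of all genes.

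Excitatory, inhibitory and synaptic lists had medians close to 0, while single genes differed more. Of 16 excitatory cortical markers 11 were lower, 3 at an unadjusted p under 0.05 (18.75%, against 5.70% of all genes). The largest difference of these 3 was in Lamp5 (-0.67 ± 0.17). The list median was -0.15, and -0.26, -0.044 and -0.065 without knockout replicate 2, knockout replicate 3 or wild-type replicate 2. Of 20 synaptic genes 15 were lower, with a median of -0.10 that was -0.17 and -0.035 without knockout replicate 2 or 3, -0.21 without wild-type replicate 1, and turned to 0.0065 without wild-type replicate 2. The scaffold Homer1 (-0.51 ± 0.15) and the fusion protein Snap25 (-0.25 ± 0.10) had the smallest p. Of 13 inhibitory neuron genes 8 were higher and 5 lower, from -0.71 to 1.39. At an unadjusted p under 0.05, 2 were higher and 1 lower (15.4% and 7.69%, against 5.76% and 5.70% of all genes). Their median was 0.11. It was 0.072, 0.039 and 0.070 without knockout replicate 1, 2 or 3, and 0.052 without wild-type replicate 3. Activity-dependent genes were split, with the antiproliferative gene Btg2 higher (0.67 ± 0.12) and the phosphatase Dusp6 lower (-0.48 ± 0.12).

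Markers of neighbouring tissue were uneven between genotypes and between single libraries. All 16 tested motile cilium genes, which in brain mark ependyma, the lining of the ventricles, were higher in the knockout, with a median of 1.07. An unadjusted p under 0.05 was reached by 13 of them (81.25%, against 5.76% of all genes), and 14 had no overlap (against 8.34% of all genes). Their transcription factor Foxj1 held 23.5, 18.1 and 30.0 CPM in the knockout and 8.80, 15.0 and 9.82 CPM in the wild type (1.09 ± 0.25). DESeq2 called 7 of the 16 genes, all higher (against 85 higher of all 14858 genes). All 12 choroid plexus genes were higher in the fit, 10 at an unadjusted p under 0.05 (83.3%, against 5.76% of all genes). Their median was 3.40 (2.21 without knockout replicate 3). The groups were separate for only 1 of the 12, against 8.34% of all genes. The thyroid hormone carrier Ttr held 492, 9.22 and 1951 CPM against 54.3, 24.9 and 14.1 CPM (4.71 ± 1.78), so that knockout replicate 2 was below every wild-type library. The 12 striatal genes had a median of 0.84 (0.54, 1.80 and 0.51 without wild-type replicate 1, 2 or 3), with the signalling regulator Rgs9 at 70.5, 78.6 and 70.7 CPM against 19.8, 77.4 and 19.2 CPM (0.92 ± 0.60). Wild-type replicate 2 matched the knockout, and replicates 1 and 3 were low. With replicate 2 left out, 32 genes passed, 19 higher and 13 lower, and they included the striatal genes Rgs9, Drd1 and Penk. These marker differences lie beside those of the interferon, myelin and microglial genes in the same libraries, and their part in them was not tested.

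**Figure D3:**
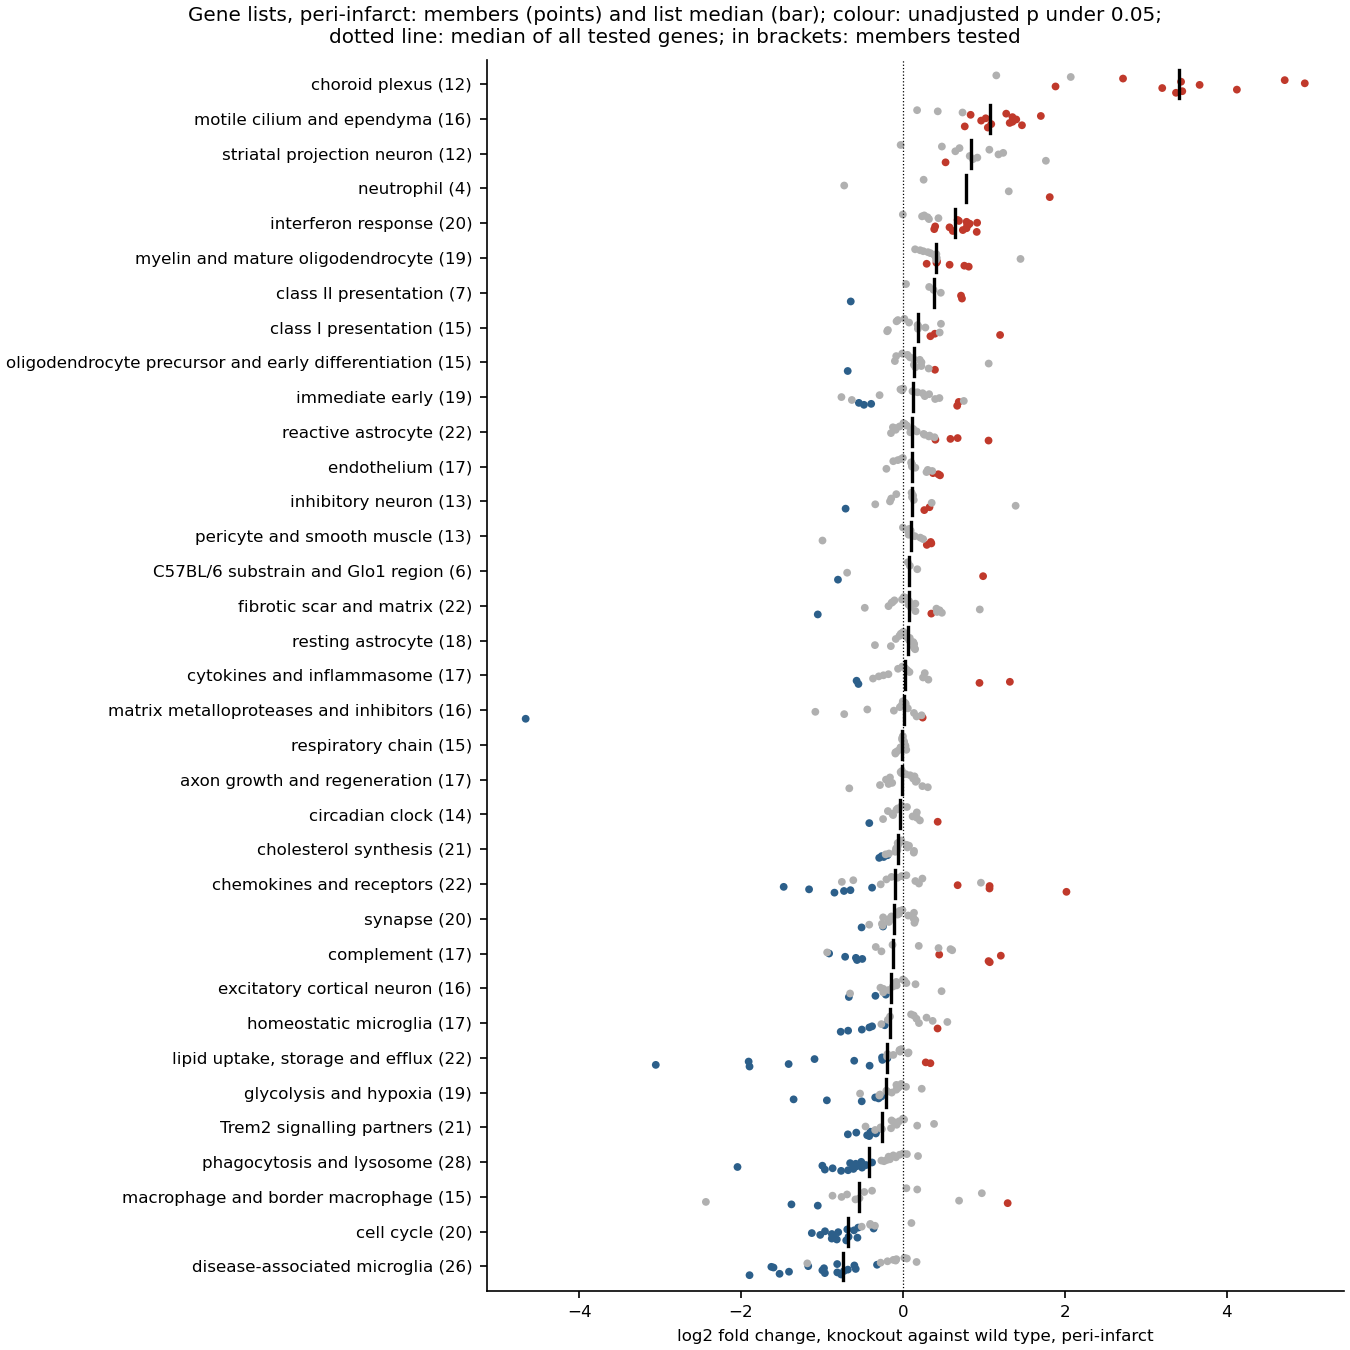
Log2 fold changes, knockout against wild type in peri-infarct tissue, of the members of 35 gene lists with at least 3 tested members (points, coloured where the unadjusted p was under 0.05), with the list median (bar), ordered by median. Disease-associated microglia and cell cycle genes have the lowest medians, and choroid plexus and motile cilium genes the highest.

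The same genotype difference was then set beside those measured in the other regions, in separate fits that share no library with it. The core was fitted without wild-type core replicate 3, whose 10 most abundant genes took 15.5% of its counts. Of the 40 genes with the smallest p at the border, 39 were tested on the contralateral side and 37 had the same sign there (94.9%, against 67.6% of all genes), and 38 of 40 had the same sign in the core (95.0% against 57.7%), or 40 of 40 with wild-type core replicate 3 included (100% against 65.8%). The 40 include Trem2 itself. If regions came from the same animals, these comparisons are not independent. Glo1, Mmut and Nnt stood at similar values in all 3 regions, Glo1 at 1.04 on the contralateral side and 1.01 in the core, Mmut at 0.69 and 0.60, and Nnt at -0.79 and -0.69. Nnt and the segment around Glo1 are known to vary between laboratory mouse strains, the labels name no substrain, and the part of strain background was not tested.

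Other genes differed by region in size, but no difference between regions passed. The interaction of genotype with border against contralateral tissue called 0 genes in edgeR, with 517 at an unadjusted p under 0.05 (3.43%) and 0 called by limma-voom. For the border against the core it called 0, with 158 at an unadjusted p under 0.05 (1.04%), or 1726 without wild-type core replicate 3, and limma-voom called 0. Lpl differed by -1.89 ± 0.25 at the border, -0.29 on the contralateral side and -1.27 in the core (-2.36 with wild-type core replicate 3), and its interaction with the contralateral side was -1.64 ± 0.31 (edgeR adjusted p = 1.0). H2-T24 differed by 0.26 on the contralateral side and 2.56 in the core, with an interaction of 1.2 ± 0.24 (edgeR adjusted p = 1.0). C3 stood at 0.38 and 0.15 in those regions (0.03 in the core with wild-type core replicate 3). The core medians of gene lists depended on that library. The disease-associated list had medians of -0.75 at the border, -0.64 on the contralateral side (23 of 26 lower) and -0.17 in the core (18 of 26 lower), which became -1.21 with wild-type core replicate 3. The interferon list had medians of 0.65, 0.39 and 1.44, with 19, 18 and 20 of 20 genes higher, and the core median was 0.69 with that library. Myelin genes had medians of 0.41 at the border, -0.10 on the contralateral side and -0.02 in the core, or 0.47 in the core with that library.

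**Figure D4:**
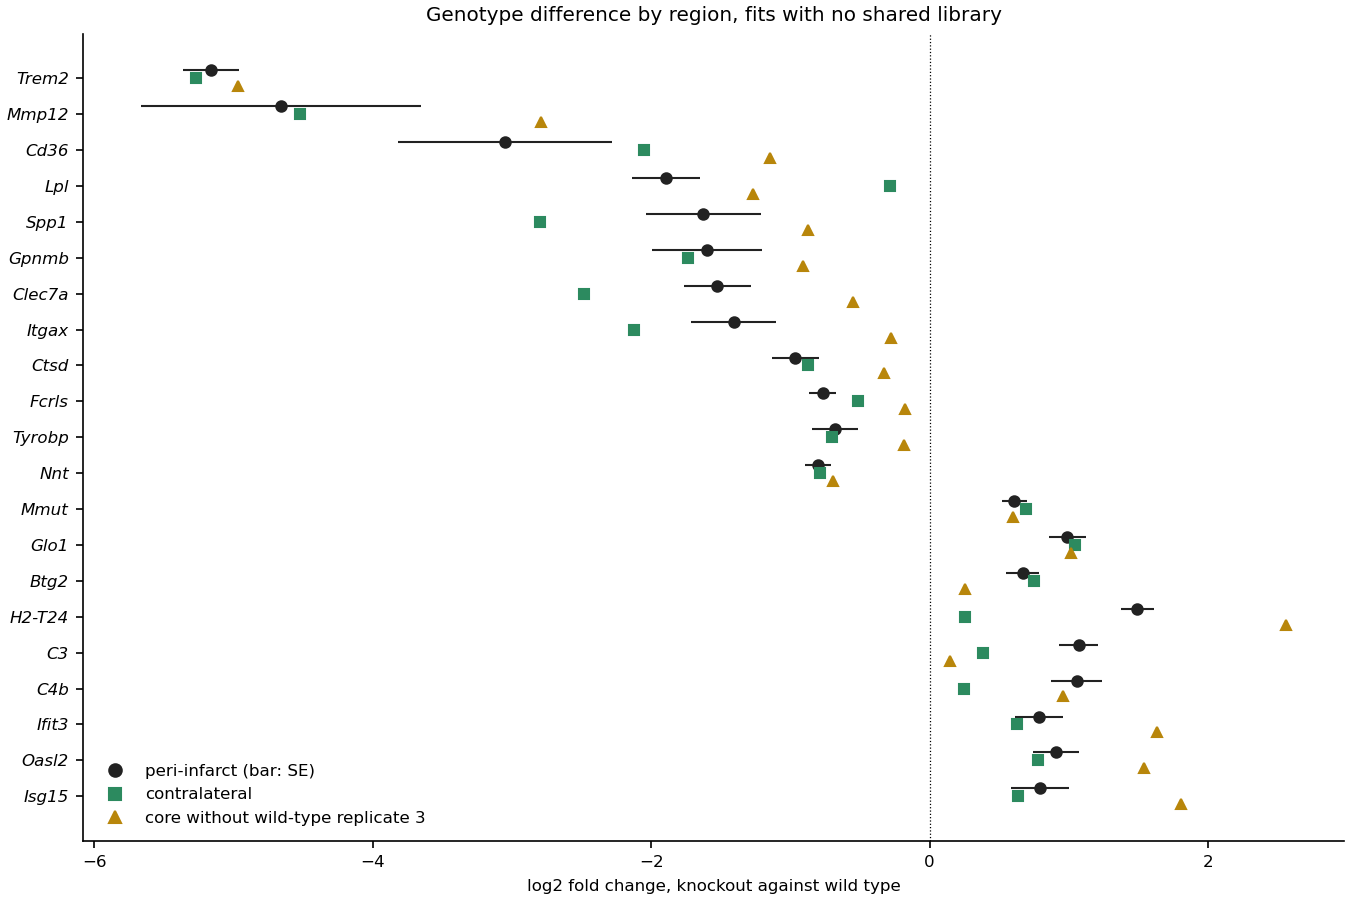
Log2 fold change, knockout against wild type, of 21 genes in peri-infarct tissue (circles, bar: SE, n = 3 per group), contralateral tissue (squares, n = 3 per group) and core (triangles, 3 knockout and 2 wild-type libraries), from separate fits. Glo1, Mmut and Nnt have nearly equal values in the 3 regions, while Lpl and H2-T24 lie nearer to 0 on the contralateral side.

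Trem2 lies on chromosome 17, and genes of that chromosome were frequent among the smallest p values. By the RefSeq gene table of GRCm38.p6, which was used only for gene order and chromosome, 716 of 14786 matched genes (4.84%) lie there, against 10 of the 40 genes with the smallest p (25%). These were Trem2, H2-T24, C3, Glo1, Mmut, Polh, Tcte3, Olfr111, C4b and Vegfa. An unadjusted p under 0.05 was reached by 101 of the 716 (14.1%), the highest share of any autosome, with 14% on chromosome 1 and 11.5% over all genes. The 9 of these 10 genes that were tested on the contralateral side all had the same sign there, as did all 10 in the core. The 10, the 101 and the same-sign counts include Trem2, the knocked-out gene. Of the 10, C3 stood at 0.15 ± 0.29 in the core. Among the 20 tested genes on each side of Trem2, 10 of 40 had an unadjusted p under 0.05, 13 had groups that did not overlap, and 0 passed the adjusted threshold. Over all tested genes, 8.34% were higher and 9.02% lower with no overlap. Olfr111, an olfactory receptor gene, held 0.288, 0.292 and 0.166 CPM in the knockout and 4.77, 1.92 and 1.44 CPM in the wild type (-3.42 ± 0.58), and Polh, which copies past damaged DNA, 5.77, 4.32 and 5.75 against 11, 9.78 and 11 CPM (-1.00 ± 0.16). Both were separate between the groups and neither passed. These 2 genes and Tcte3 are named after their values were seen. Whether sequence near the knocked-out gene differs between the lines is not given in the labels and was not tested.

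**Figure D5:**
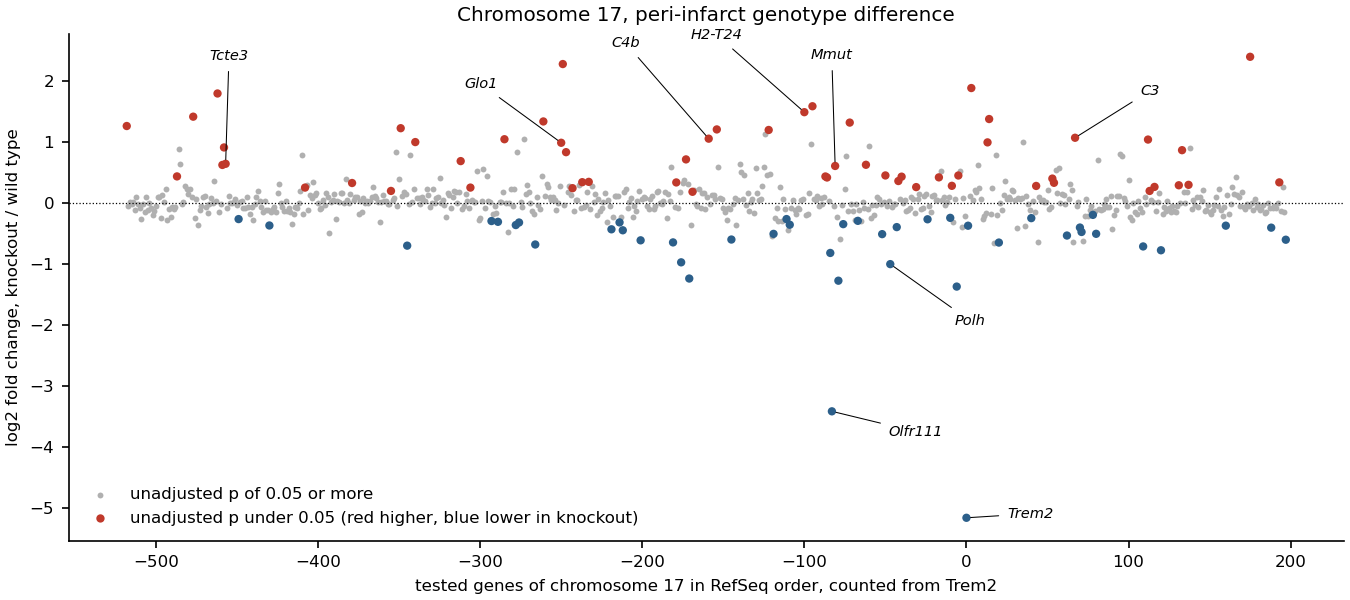
Log2 fold change in peri-infarct tissue of the 716 tested genes of chromosome 17, in RefSeq order counted from Trem2 (x axis: number of genes away, coloured points: unadjusted p under 0.05, red higher and blue lower in the knockout). Trem2 has the lowest value. Coloured points lie both near Trem2 and far from it, with 10 among the 40 nearest genes and 101 among all 716.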

How the data were processed

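Polyadenylated RNA of mouse brain tissue was sequenced, and groups came from the sample labels. The authors deposited expected counts (estimated counts, of which 3678 genes held a value that was not whole) and TPM for 18922 genes. Per the submitters' processing notes, HISAT2 2.0.4 was used, as were Bowtie2, Subread and the build GRCm39 (mm39). Which program produced the estimates is not given in those notes. Rounded counts of the 6 peri-infarct libraries went into edgeR 4.0.16 (R 4.3.3; filterByExpr, TMM scaling, robust quasi-likelihood fit), with Benjamini-Hochberg adjustment over all tested genes and a threshold of 0.05. The design had assumed whole counts. Each SE comes from the size of the log2 fold change over the root of its F statistic. The scripts were tested on simulated data. Alternatives used DESeq2 1.42.0, limma 3.58.1 (voom, and trend on log2 of the deposited TPM plus 1 or 0.1), other filters and scalings, more libraries and left-out replicates.

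Named genes were Trem2, the 5 smallest p values in each direction (mean log2 CPM of at least 1) where fewer than 5 passed, and in each of 37 lists the 2 members with the smallest p where none passed. Others were named to show a list or after their values were seen. Some genes that the rule names are not reported here. Members and lists were chosen with earlier results of these data known. Replicates of a group differed beyond sampling noise. A permutation of 3 against 3 cannot give a 2-sided p under 0.1, so none was used.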

Additional observations from a re-analysis of the deposited data

How the results depend on the processing

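The count of 2 genes passed in peri-infarct tissue was the same with DESeq2 size factors, limma-voom, no filter or a stricter filter on low counts, and TPM plus 1 or 0.1. DESeq2's Wald test gave 226, the 12 peri-infarct and contralateral libraries 10, all 18 libraries 1, and 17 libraries without wild-type core replicate 3 gave 18. With a replicate block 1 gene passed, Trem2. Same-numbered knockout and wild-type libraries correlated at 0.145, 0.166 and -0.014, and not every library correlated best with its own number, so the numbers were not taken to pair the samples. Leaving out 1 replicate gave 1 to 32 genes, with 32 without wild-type replicate 2, and Trem2 passed in each of the 17 alternatives. Neither interaction passed a gene under any alternative that was run. Of 1232 values of 73 named genes under alternatives 1172 kept direction and side of the threshold, 48 passed newly, 6 (all of H2-T24) no longer passed, and 6 changed sign. The 6 were Lck at -0.10 without knockout replicate 2, and Cd79b at 0.0023 with TPM plus 1, 0.12 and 0.02 without knockout replicates 1 and 3, and 0.02 and 0.01 without wild-type replicates 2 and 3. Over all left-out replicates Lck ranged from -0.10 to 0.62 and Cd79b from -0.22 to 0.12. The cause was not tested. In the main fit Lck stood at 0.28 ± 0.44 and Cd79b at -0.017 ± 0.32, each with an overlap between groups and counts near the filter.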

Other observations

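Other genes among the 40 smallest p values, chosen after their values were seen, did not pass (edgeR adjusted p = 0.214 each). Plaur, the urokinase receptor, stood at -1.52 ± 0.25 and the endosomal RNA receptor Tlr7 at -0.67 ± 0.11. The inhibitory Fc receptor Fcgr2b stood at -0.61 ± 0.11, and P4ha1, a collagen prolyl hydroxylase, at -0.51 ± 0.08. Cd24a, a surface glycoprotein of neuroblasts and ependyma, was higher at 1.01 ± 0.16. Of 17 tested axon growth genes 8 were higher and 9 lower, with 0 at an unadjusted p under 0.05. Of 14 clock genes Per2 was lower (-0.42 ± 0.14) and Dbp higher (0.43 ± 0.17) at that level, both with overlapping libraries. That is 7.14% each way, near the 5.70% lower and 5.76% higher of all genes. These values rest on 3 libraries per group, which held uneven levels of choroid plexus, striatal and scar genes.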
